A study of Mus musculus with 12 samples.

Results

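Vomeronasal receptors are the chemosensory receptors of the vomeronasal organ, and their transcripts were measured here in cells sorted from the main olfactory mucosa of mice. The genes were those with a symbol starting Vmn1r (V1R family) or Vmn2r (V2R family) that had a probe set annotated to a single symbol. Where a gene had 2 such probe sets, the one with the higher mean was taken. The array carried 248 vomeronasal receptor symbols. Of these 167 genes qualified, 118 V1R and 49 V2R, out of 19938 genes measured in all. The other 81 symbols appear only on probe sets that are shared among several symbols. Among the 167 are 4 pseudogenes.

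The study used S100a5-tauGFP mice, whose green fluorescent protein reports on S100a5, a gene of mature olfactory sensory neurons whose transcription follows their activity. Mice of both sexes aged 7 to 12 weeks were kept for 40 hours in chambers supplied with clean air at 3.1 L per minute. Stimulation began at 26 hours, with 10-second pulses every 20 minutes of vehicle or of odor, a citrus accord that the series title gives as 5%. Cells from 3 mice were pooled per sample and sorted into a GFP-positive and a GFP-negative fraction, so that 6 pools from 18 mice gave 12 Mouse Gene 1.0 ST arrays. The groups were vehicle GFP-negative, vehicle GFP-positive, odor GFP-negative and odor GFP-positive, with 3 arrays each. All 4 groups carried the same reporter allele. The GFP-positive fraction holds the cells in which the S100a5 reporter was on, and the GFP-negative fraction holds every other cell of the tissue together with neurons in which it was off.

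V1R and V2R proteins are G protein-coupled receptors of sensory neurons in the vomeronasal organ, a tubular organ at the base of the nasal septum that detects pheromones and other social cues. V1R neurons signal through the G protein subunit Gnai2 and V2R neurons through Gnao1, and both depend on the channel Trpc2. The main olfactory epithelium, which was sampled here, uses odorant receptors and trace amine-associated receptors instead, with the G protein subunit Gnal, the adenylyl cyclase Adcy3 and cyclic nucleotide-gated channels.

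The labelled tissue was checked against marker genes on the deposited log2 intensity scale. All 10 markers of main olfactory neurons lay above the array median in every group, and 9 of the 10 rose with GFP in vehicle mice. Omp, the olfactory marker protein of mature neurons, was 13.17 ± 0.11 in vehicle GFP-negative and 13.48 ± 0.03 in vehicle GFP-positive cells (SD, n = 3). The probe set of S100a5 read 6.16 ± 0.08 and 6.35 ± 0.11 in the same groups, a difference of 0.19 (SE 0.10) that did not pass the test (adjusted p = 0.123, limma). In odor mice S100a5 was higher in GFP-positive cells by 0.31 (SE 0.10, adjusted p = 0.0167, limma). All 4 sustentacular, all 4 microvillous and all 6 leukocyte markers were lower in GFP-positive cells of both treatments.

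Vomeronasal receptors lay at the bottom of the intensity range in all 4 groups. The median V1R gene had a mean over all arrays of 4.03 and the median V2R gene of 4.01 (log2). The corresponding medians were 7.28 for 1027 odorant receptors, 7.76 for 13 trace amine receptors and 6.08 for 31 genes of other organs such as liver, pancreas, retina and testis. These are positions on the array, since probe sets differ in how well they bind, and one gene's value cannot be set against another's. Of the 167 receptors 163 (97.6%) were below the lower quartile of all genes on all 12 arrays, which lay between 6.25 and 6.41. This was so for all 118 V1R and for 45 of 49 V2R genes, but for 143 of 1027 odorant receptors (13.9%). Below the lowest decile on all 12 arrays were 147 vomeronasal receptors (88.0%). The number of arrays limits the precision of these values.

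**Figure D1:**
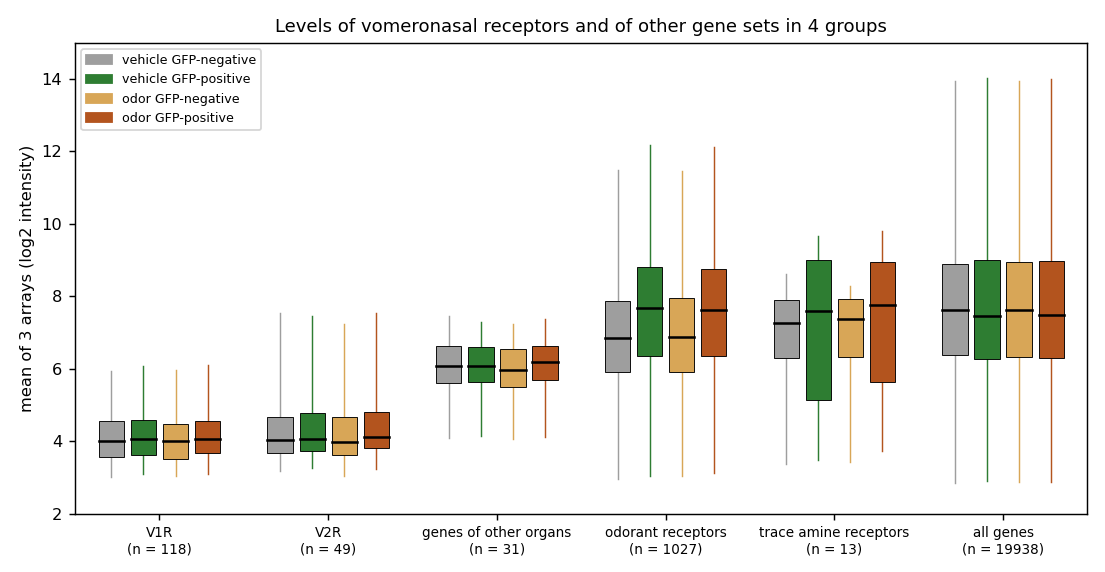
Levels of V1R, V2R and other gene sets in the 4 groups, on the log2 intensity scale. Each box spans the lower to the upper quartile over the genes of a set of their means of 3 arrays, the thick line is the median and the thin line runs from the lowest to the highest gene. V1R and V2R boxes lie near 4 in every group, and the odorant receptor medians are 6.86 and 6.87 in GFP-negative and 7.68 and 7.62 in GFP-positive cells.

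No vomeronasal receptor was above background, defined as above the median of all genes on all 3 arrays of a group. The count was 0 of 167 in each of the 4 groups. This bar is not a detection limit. S100a5, the gene of the reporter, did not pass it at 6.35 in vehicle GFP-positive cells, and 0 of 3 basal cell markers passed in any group. Over all genes the share above background was 47.2% in vehicle GFP-negative, 48.2% in vehicle GFP-positive, 47% in odor GFP-negative and 48% in odor GFP-positive cells. Odorant receptors passed in 240, 499, 247 and 468 cases in the same order. Against a lower bar, the 90th percentile of the genes of other organs on each array, 1 receptor passed in each group, and it was Vmn2r9 each time, where 61.2%, 59.3%, 62.3% and 57.7% of all genes passed. The lower quartile of all genes was exceeded on all 3 arrays by Vmn2r9 and the pseudogene Vmn2r-ps104 in all 4 groups, and by Vmn2r26 and Vmn2r54 in both GFP-positive groups, against 72.6%, 73.1%, 72.5% and 72.9% of all genes. No V1R gene exceeded it on all 3 arrays of any group. In a bulk sample a low level can come from few cells or from little RNA per cell, which cannot be told apart. Whether RNA of a receptor was present at all was not tested, as no detection call came with the values.

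Vmn2r9, a V2R gene (probe set 10532267), came nearest to the array median. Its values were 7.46, 7.40 and 7.80 in vehicle GFP-negative, 7.62, 7.16 and 7.61 in vehicle GFP-positive, 7.30, 7.28 and 7.13 in odor GFP-negative and 7.40, 7.63 and 7.57 in odor GFP-positive cells. It was above the median of its array on 2 of 3 arrays in both GFP-positive groups, on 1 in vehicle GFP-negative and on 0 in odor GFP-negative cells. The odor fractions did not overlap, and differed by 0.30 (SE 0.13, adjusted p = 0.0785, and 0.0349 with the pool of mice as a block, limma). With vehicle GFP-positive replicate 2 left out, or odor GFP-positive replicate 2, it passed as above background in that group.

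Vmn2r-ps104 (probe set 10410224) read 6.73, 6.59 and 6.89 in vehicle GFP-negative and 6.38, 6.51 and 6.50 in vehicle GFP-positive cells. In odor mice it read 6.57, 6.61 and 6.38 in GFP-negative and 6.43, 6.85 and 6.50 in GFP-positive cells. The vehicle fractions did not overlap, with GFP-negative cells higher, while the odor fractions did. The difference in vehicle mice, -0.27 (SE 0.12), did not pass the test (adjusted p = 0.0714, limma), and did with the pool of mice as a block (adjusted p = 0.0473).

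Vmn2r54 (probe set 10560028) had group means of 6.53 ± 0.20, 6.58 ± 0.16, 6.31 ± 0.31 and 6.45 ± 0.04 (SD, n = 3) in vehicle GFP-negative, vehicle GFP-positive, odor GFP-negative and odor GFP-positive cells. Vmn2r26, also called V2r1b and known as a receptor for peptides bound by major histocompatibility molecules, had means of 6.41 ± 0.10, 6.49 ± 0.17, 6.35 ± 0.09 and 6.51 ± 0.03 in the same order. Neither gene passed a test in any comparison. The next V2R gene by mean, Vmn2r93, had group means between 5.40 and 5.63.

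Among V1R genes Vmn1r86 had the highest mean, with group means of 5.93 ± 0.25, 6.07 ± 0.12, 5.96 ± 0.34 and 6.11 ± 0.16 (SD, n = 3). Its arrays ranged from 5.66 to 6.32 and overlapped between all groups. Vmn1r193, Vmn1r75, Vmn1r202 and Vmn1r89 followed. Vmn1r75 read 5.45, 5.60 and 5.37 in odor GFP-negative and 5.70, 5.79 and 5.69 in odor GFP-positive cells, without overlap, and its difference of 0.25 had adjusted p = 0.0924, or 0.0165 with the pool as a block (limma). Vmn1r89 and Vmn1r85 belong to the V1rj receptors, which detect female steroid cues. Vmn1r89 had means of 5.38, 5.53, 5.28 and 5.38 and Vmn1r85 of 4.85, 5.02, 4.94 and 5.06, in the order vehicle GFP-negative, vehicle GFP-positive, odor GFP-negative and odor GFP-positive, and neither passed a test in any comparison.

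Of 14 receptors to be named whatever their values, for their known ligands or place of expression, 6 had a probe set of their own. Vmn2r1, a member of the small family C that V2R neurons express beside other V2R genes, had group means between 4.71 and 4.85. Vmn2r83, which is also expressed in the Grueneberg ganglion at the tip of the nose, had means between 4.91 and 5.14. Vmn1r51 had means between 3.80 and 3.90. None of the 6 passed a test in any comparison. Vmn2r2 to Vmn2r7, Vmn2r88 and Vmn2r116 were not analysed here as single genes.

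**Figure D2:**
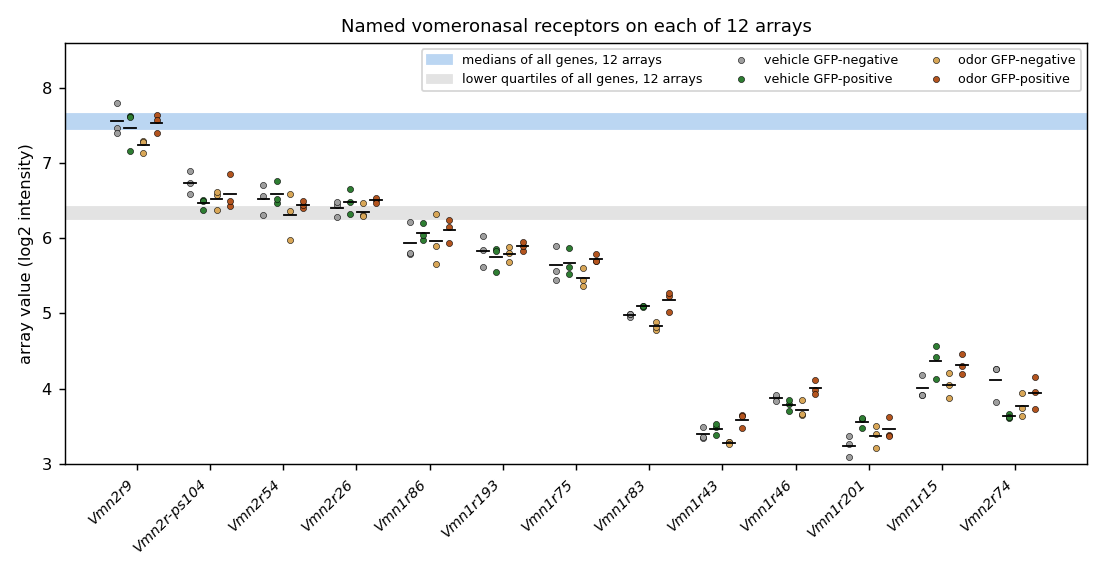
Array values (log2 intensity) of 13 named vomeronasal receptors on each of 12 arrays, with colours for the 4 groups and a short black line at each group's mean. The blue band spans the medians of all genes over the 12 arrays, 7.46 to 7.65, and the grey band their lower quartiles, 6.25 to 6.41. Vmn2r9 lies around the blue band, Vmn2r-ps104, Vmn2r54 and Vmn2r26 around the grey band, and the other receptors shown lie below it apart from Vmn1r86, which reaches 6.32.

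Setting GFP-positive against GFP-negative cells asks which receptor transcripts go with the reporter. In vehicle mice 4 V1R genes rose, 1 V2R gene fell, and 114 V1R and 48 V2R genes did not pass (limma, Benjamini-Hochberg adjusted p under 0.05 over all genes). Over all genes 29.9% were higher and 18.2% lower, so that the receptors' 2.40% and 0.60% were below the background. Of 1384 other genes with a mean under 5, 5.20% were higher and 3.25% lower. The part of low intensity in the receptors' lower shares was not tested. Fractions did not overlap for 23 receptors with the GFP-positive arrays higher and for 2 with them lower, against 35.3% and 22% of all genes. The 95% interval of the difference lay within 0.5 of 0 for 159 of 167 receptors, and within 1 for all 167. The arrays of the compared fractions come from the same 3 pools, each of which is 1 dissociation and sort. The p-values rest on the spread of arrays within the 4 groups, and treat the fractions of a pool as independent except where a block is named.

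Vmn2r74 (probe set 10565362) was the receptor that fell. It read 4.26, 4.26 and 3.83 in vehicle GFP-negative against 3.61, 3.67 and 3.63 in vehicle GFP-positive cells. All GFP-negative arrays were above all GFP-positive arrays, at a difference of -0.48 (SE 0.13, 0.717-fold, adjusted p = 0.00951, limma). In odor mice its values were 3.74, 3.94 and 3.63 in GFP-negative and 3.73, 3.96 and 4.16 in GFP-positive cells, which overlapped, and the difference there was 0.18 (SE 0.13, adjusted p = 0.279, limma). All these values lie below the lower quartile of their arrays.

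Vmn1r15 (probe set 10538582) read 3.92, 4.18 and 3.92 in vehicle GFP-negative and 4.57, 4.13 and 4.42 in vehicle GFP-positive cells, a difference of 0.37 (SE 0.13, 1.29-fold, adjusted p = 0.0292, limma). The fractions overlapped at 1 array. Vmn1r201 (probe set 10404000) read 3.26, 3.37 and 3.09 against 3.59, 3.48 and 3.60 without overlap, a difference of 0.32 (SE 0.10, adjusted p = 0.0196, limma). The neighbouring genes by number, Vmn1r4 and Vmn1r5, differed by 0.20 (SE 0.07, adjusted p = 0.0304, limma) and 0.21 (SE 0.07, adjusted p = 0.0261, limma). With the pool of mice as a block these became adjusted p = 0.0712 and adjusted p = 0.0591 (limma). In odor mice none of the 4 passed, with differences of 0.27 for Vmn1r15, 0.09 for Vmn1r201, 0.01 for Vmn1r4 and 0.16 for Vmn1r5.

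The count of 5 in vehicle mice was carried by single arrays. It was 1 without GFP-positive replicate 4, 2 without GFP-positive replicate 1, 2 without GFP-negative replicate 4 and 8 without GFP-negative replicate 2. With cyclic loess scaling 0 receptors were higher and 1 was lower, and with a second quantile normalization 2 were higher and 1 was lower. Vmn2r74 kept its call in 14 of 15 alternatives, the exception being the one that sets values under the lowest decile of an array equal.

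In odor mice 13 V1R and 5 V2R genes rose, 0 fell, and 105 and 44 did not pass. Over all genes 33.5% were higher and 18.7% lower, against 10.8% and 0% of the receptors. Among 1384 other genes with a mean under 5, which share the low intensity of the receptors, 15.2% were higher and 3.54% lower. Fractions did not overlap for 50 receptors with the GFP-positive arrays higher and for 0 with them lower, against 40.4% and 20.4% of all genes. The rises were small: the largest was 0.35, and the 95% interval lay within 0.5 of 0 for 156 of 167 receptors.

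Vmn1r83 (probe set 10560019) had the smallest adjusted p. It read 4.78, 4.88 and 4.82 in odor GFP-negative and 5.02, 5.23 and 5.27 in odor GFP-positive cells, a difference of 0.35 (SE 0.07, 1.27-fold, adjusted p = 0.00168, limma). The vehicle fractions, at 4.96, 4.99 and 4.99 against 5.10, 5.09 and 5.10, did not overlap either and differed by 0.12 (SE 0.07, adjusted p = 0.213, limma). Every GFP-positive array of both treatments was thus above every GFP-negative array of Vmn1r83.

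Vmn1r43 (probe set 10546233) read 3.29, 3.29 and 3.27 against 3.64, 3.47 and 3.64, a difference of 0.30 (SE 0.07, adjusted p = 0.00431, limma). Vmn1r46 (probe set 10539963) read 3.85, 3.65 and 3.66 against 3.98, 3.93 and 4.12, a difference of 0.29 (SE 0.08, adjusted p = 0.00825, limma). In vehicle mice Vmn1r46 lay the other way, at -0.10 (SE 0.08), without passing. Vmn1r216 differed by 0.30 (SE 0.09, adjusted p = 0.0120, limma) and Vmn1r21 by 0.35 (SE 0.14, adjusted p = 0.0447, limma). Vmn1r21 was the called receptor whose odor fractions overlapped, and without GFP-positive replicate 3 its difference was 0.18.

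The V2R genes that rose in odor mice were Vmn2r52, Vmn2r65, Vmn2r15, Vmn2r19 and the pseudogene Vmn2r-ps11. Vmn2r52 (probe set 10559936) read 3.98, 3.85 and 3.99 in GFP-negative and 4.15, 4.21 and 4.21 in GFP-positive cells, a difference of 0.25 (SE 0.09, adjusted p = 0.0289, limma). The other 4 differed by 0.19 to 0.24, with adjusted p between 0.0421 and 0.0480 (limma). Of the 13 V1R genes, the others were Vmn1r42, Vmn1r50, Vmn1r208, Vmn1r6, Vmn1r232, Vmn1r230, Vmn1r212 and Vmn1r78, at 0.17 to 0.28. With the pool of mice as a block Vmn2r65 had adjusted p = 0.0649, Vmn2r15 adjusted p = 0.0555 and, among V1R genes, Vmn1r78 adjusted p = 0.0862, while Vmn1r6, Vmn1r230 and Vmn1r232 lay between 0.0519 and 0.0618 (limma). For Vmn2r65 the mean of its pair of probe sets gave 0.14 in place of 0.22 (adjusted p = 0.144, limma).

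The count of 18 in odor mice also moved with single arrays and with the scaling. It was 7 without GFP-negative replicate 4, 8 without GFP-positive replicate 3, and 11 without GFP-positive replicate 2 or replicate 4. With cyclic loess it was 2 higher and 2 lower, with a second quantile normalization 6 higher and 2 lower, and with the 2 odor groups fitted alone 10. Vmn1r83 and Vmn1r43 kept their calls in 14 of 15 alternatives each.

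The share of receptors above 0 went with the scaling of the arrays. As deposited, 117 of 167 differences were above 0 in vehicle mice and 152 in odor mice. The V1R median was 0.05 in vehicle and 0.11 in odor mice, the V2R median 0.06 and 0.14, and the median over all genes 0.06 and 0.13. Other genes with a mean under 5 had medians of 0.04 and 0.11. With cyclic loess the V1R medians were -0.01 and -0.00 for vehicle and odor mice and the V2R medians 0.01 and 0.02. The upward direction of the V1R family in the deposited values was thus absent with this scaling, with 57 and 58 of 118 above 0. With a second quantile normalization the V1R medians were 0.00 and 0.02 and the V2R medians 0.04 and 0.05.

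**Figure D3:**
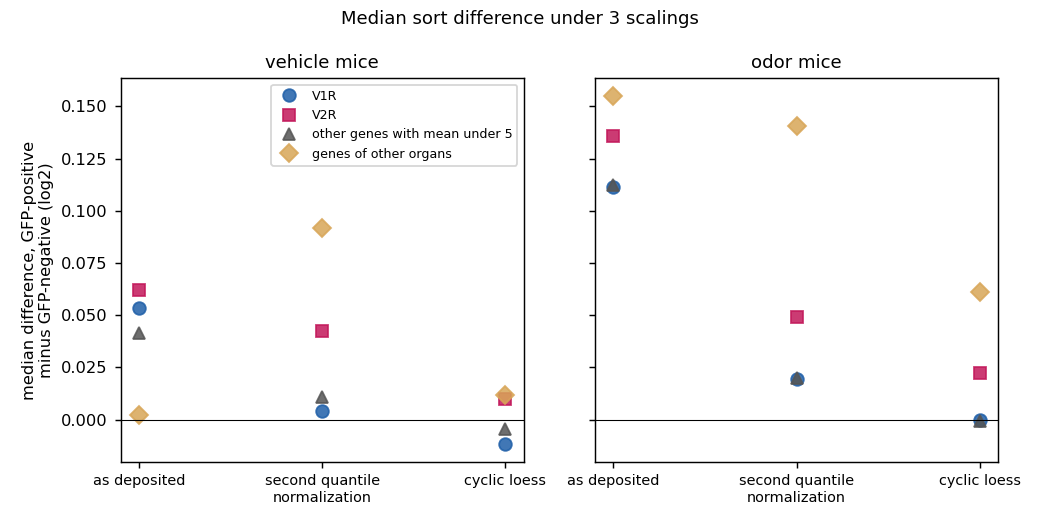
Median difference of GFP-positive minus GFP-negative cells (log2) in vehicle mice (left) and odor mice (right) under 3 scalings of the arrays, for V1R genes, V2R genes, other genes with a mean under 5 and genes of other organs. Points of the V1R family follow those of the other low genes, and all 4 sets lie nearer to 0 with cyclic loess in odor mice.

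Of 167 receptors 0 were called in both treatments in 1 direction, against 42.1% of all genes and 646 of 1027 odorant receptors. With 5 and 18 receptors called, little overlap could arise, and the 0 is no result about the receptors. Across the 167 receptors the differences of the 2 treatments correlated with Pearson's r = 0.21 and Spearman's rho = 0.20, with 120 of the same sign. Across the 1027 odorant receptors r was 0.96 and rho 0.95, with 971 of the same sign. Genes are not independent replicates, and all differences share the scaling of 12 arrays, so these are descriptions.

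**Figure D4:**
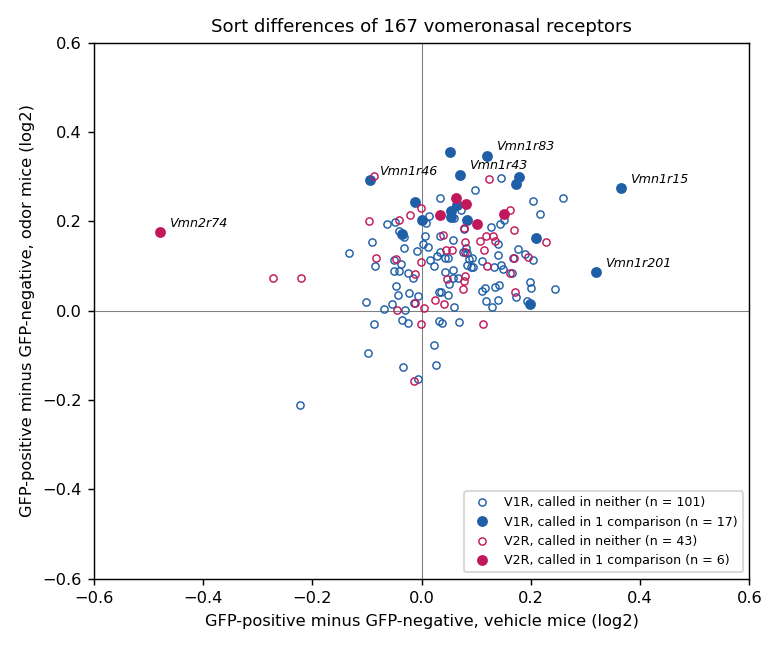
Difference of GFP-positive minus GFP-negative cells (log2) in vehicle mice (horizontal) and odor mice (vertical) for each of 167 vomeronasal receptors. Open points were called in neither treatment and filled points in 1 of them, V1R genes in blue and V2R genes in red. Differences run from -0.48 to 0.37 in vehicle mice and from -0.21 to 0.35 in odor mice, and no point was called in both.

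The comparison of odor with vehicle mice asks whether the citrus accord goes with the level of a vomeronasal receptor. Among GFP-positive cells 0 of 167 receptors passed in limma, where 0.00502% of all genes did. Unadjusted p-values under 0.05 were had by 7 receptors, 6 V1R and 1 V2R, or 4.19% against 1.3% of all genes. Much of that gap goes with low intensity: of 1384 other genes with a mean under 5, 47 had such a p-value, a share nearer to that of the receptors. The median difference was 0.00 in both families. The 95% interval lay within 0.5 of 0 for 163 of 167 receptors and within 1 for all 167. Groups did not overlap for 8 receptors with odor higher and 3 with odor lower, against 4.49% and 3.45% of all genes.

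The smallest p-values among GFP-positive cells belonged to Vmn1r46 and Vmn1r78. Vmn1r46 read 3.79, 3.85 and 3.71 in vehicle and 3.98, 3.93 and 4.12 in odor mice, a difference of 0.23 (SE 0.08) that did not pass over all genes (adjusted p = 1, limma). Vmn1r78 read 3.84, 3.88 and 3.75 against 3.99, 4.04 and 3.98, a difference of 0.18 (SE 0.07). Neither pair of groups overlapped. Among V2R genes Vmn2r74 differed by 0.31 (SE 0.13) and Vmn2r78 by 0.25 (SE 0.12), both without overlap and neither past the test.

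Among GFP-negative cells 0 receptors passed in limma, and 0% of all genes did. Unadjusted p-values under 0.05 were had by 4 receptors, 1 V1R and 3 V2R, or 2.40% against 6.53% of all genes. Among 1384 other genes with a mean under 5 the share was 6.07%. Vmn1r40 read 4.80, 4.80 and 4.92 in vehicle and 4.66, 4.63 and 4.48 in odor mice, a difference of -0.26 (SE 0.08, adjusted p = 0.732, limma). The next V1R gene by p, Vmn1r72, differed by -0.17 (SE 0.08) and had an unadjusted p above 0.05. Vmn2r74 differed by -0.34 (SE 0.13) and Vmn2r9 by -0.32 (SE 0.13), the latter from the array values given above, which did not overlap.

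Of the 167 receptors 52 were above 0 in that comparison, with a median of -0.06, which was -0.01 with a second quantile normalization and -0.00 with cyclic loess. Other genes with a mean under 5 had a median of -0.04 and the genes of other organs of -0.10. Odor was lower without overlap for 13 of 167 receptors and higher for 2, against 4.65% and 2.79% of all genes. Of 1384 other genes with a mean under 5, odor was lower without overlap for 139 and higher for 28. The 95% interval of the difference lay within 0.5 of 0 for 159 of 167 receptors.

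Whether the sort difference itself differed between odor and vehicle mice was tested as an interaction, which 0 of 167 receptors passed in limma, where 0.00502% of all genes did. Unadjusted p-values under 0.05 were had by 7 receptors, or 4.19% against 4.23% of all genes. Vmn2r74 had the largest interaction, at 0.66 (SE 0.19, adjusted p = 0.971, limma), its difference being -0.48 in vehicle and 0.18 in odor mice. Vmn1r46 had 0.39 (SE 0.11), Vmn2r68 0.30 (SE 0.12) and Vmn1r40 0.26 (SE 0.11). That different receptors were called in the 2 treatments was therefore not matched by a tested difference for any receptor. The interval of the interaction was wider, and lay within 0.5 of 0 for 131 of 167 receptors.

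Genes listed for vomeronasal neurons were called in both directions, as were genes at large. Of 27 genes listed as markers of vomeronasal neurons 25 had a probe set of their own, and the defining channel gene Trpc2 was among those that did not. In vehicle mice 4 were higher and 5 lower in GFP-positive cells, and in odor mice 5 were higher and 6 lower, while 0 passed in either odor comparison. For vehicle mice these are shares of 16.0% and 20.0%, against 29.9% and 18.2% of all genes. The odor mice gave 20.0% and 24.0%, against 33.5% and 18.7% of all genes. The list's mean over its genes was 7.05 to 7.09 on the vehicle GFP-negative arrays and 6.78 to 6.87 on the vehicle GFP-positive ones. In odor mice it was 6.95 to 7.08 and 6.80 to 6.90. The median difference over the list was -0.03 in vehicle and 0.12 in odor mice, so the lower means do not describe the typical gene of the list.

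Gnai2, the G protein subunit of V1R neurons, fell from 11.93 ± 0.17 to 8.59 ± 0.05 (SD, n = 3) in vehicle mice, a difference of -3.34 (SE 0.14). Leukocytes also express Gnai2, and the mean of 6 leukocyte markers ran from 11.96 to 12.20 on the vehicle GFP-negative arrays and from 8.12 to 8.18 on the GFP-positive ones. The part of these cells in the difference of Gnai2 was not tested. Gnao1, the subunit of V2R neurons, which olfactory neurons express too, rose from 11.70 ± 0.09 to 12.14 ± 0.03, a difference of 0.44 (SE 0.08). Gng13 and Bcl11b were higher too in vehicle mice, by 0.40 and 0.45, and Gng8, Meis2 and Muc2 differed by -1.23, -0.83 and -0.96. The chloride channel genes of the list went opposite ways. Ano2, the channel of main olfactory neurons, differed by 0.79 (SE 0.11), and Ano1 differed by -0.80 (SE 0.10). Markers of sustentacular and microvillous cells fell as well in vehicle mice, with medians of -2.21 and -1.68. The part of non-neuronal cells in the difference of Ano1 was not tested.

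The genes of this list that are most restricted to the vomeronasal organ are those of the nonclassical H2-M10 molecules of V2R neurons and of the formyl peptide receptors. The 6 H2-M10 genes had group means from 4.49 (H2-M10.6) to 7.54 (H2-M10.2), and none passed in either sort comparison. Nor did H2-M1, H2-M9 or H2-M11 of the list. The 4 formyl peptide receptor genes had group means from 3.74 (Fpr-rs6) to 6.32 (Fpr-rs3). Fpr-rs3 was higher in GFP-positive cells of odor mice by 0.31 (SE 0.11, adjusted p = 0.0299, limma), and the other 3 did not pass.

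The 81 receptor symbols without a probe set of their own are covered by 66 probe sets shared by up to 19 symbols, 28 with V1R and 38 with V2R symbols. These were fitted separately, over all 23410 probe sets with a gene, after the values were seen. A block of 17 of them, shared among 14 symbols numbered Vmn2r28 to Vmn2r52, was singled out after its values were seen, and the counts for it are therefore descriptions. Their probes match the same paralogous genes, so the 17 are not independent and their signal cannot be given to one gene. Only Vmn2r52 of the 14 also has a probe set of its own. That probe set did not pass between fractions in vehicle mice, and was higher in GFP-positive cells of odor mice, as given above.

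In vehicle mice 15 of the 17 were higher in GFP-positive cells and 0 lower, where 28.3% of all probe sets with a gene were higher and 19.1% lower. All 17 differences were above 0, from 0.06 to 0.88 with a median of 0.52, and with cyclic loess or a second quantile normalization 16 were. In odor mice 2 of the 17 were higher and 0 lower, where 31.5% and 19.8% of all probe sets were, and the median was 0.24, or 0.10 without GFP-positive replicate 4, 0.16 without GFP-negative replicate 4 and 0.15 with cyclic loess. The probe set of Vmn2r28 and Vmn2r52 alone (10559745) differed by 0.06 in vehicle mice (adjusted p = 0.666, limma) and by -0.04 in odor mice. Of the other 49 shared probe sets 5 were higher in vehicle and 1 in odor mice, with medians of 0.00 and 0.06. Of those 5, 3 have identical values, and the count was 1 without GFP-negative replicate 2 or GFP-positive replicate 2 or 4, 2 without GFP-negative replicate 4 and 2 with the pool as a block. The 1 higher in odor mice was 0 with the pool as a block, with each of the 3 scaling and weighting alternatives and without GFP-negative replicate 4 or any 1 GFP-positive array. The count of 15 in vehicle mice was 4 without GFP-negative replicate 2, 5 without GFP-positive replicate 4, 8 without GFP-negative replicate 4 and 6 with array weights, and it was 14 with cyclic loess and 15 with a second quantile normalization.

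Probe set 10559837, shared by 11 symbols among them Vmn2r34, Vmn2r35 and Vmn2r36, was the only shared probe set above the array median on all 3 arrays of a group, and it was so in both GFP-positive groups. It read 7.83, 7.37 and 7.51 in vehicle GFP-negative, 8.31, 8.24 and 8.44 in vehicle GFP-positive, 7.62, 7.30 and 7.43 in odor GFP-negative and 7.97, 7.83 and 8.35 in odor GFP-positive cells. Every GFP-positive array lay at or above every GFP-negative array, with the lowest GFP-positive and the highest GFP-negative value both at 7.83 to 2 decimals. The difference was 0.76 (SE 0.15, 1.69-fold, adjusted p = 0.000921, limma) in vehicle and 0.60 (SE 0.15, 1.52-fold, adjusted p = 0.00413, limma) in odor mice.

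Probe set 10559890, shared by 8 symbols, read 5.40, 4.99 and 5.28 in vehicle GFP-negative and 6.05, 5.99 and 6.27 in vehicle GFP-positive cells. Its differences were 0.88 (SE 0.15, adjusted p = 0.000398, limma) and, in odor mice, 0.45 (SE 0.15, adjusted p = 0.0231, limma). In vehicle mice the differences of both probe sets were larger in size than that of any of the 167 receptors with a probe set of their own, of which the largest was -0.48. Between odor and vehicle mice 0 of the 17 passed in limma, in GFP-positive cells (0.00427% of all probe sets higher), in GFP-negative cells (0%) or as an interaction (0.00427%). The odor minus vehicle median of the 17 was -0.21 in GFP-positive cells, with 1 of 17 above 0, and 0.10 in GFP-negative cells, with 16 above 0. In GFP-positive cells it was -0.11 without vehicle replicate 4, -0.12 without odor replicate 3 and -0.32 without odor replicate 4. In GFP-negative cells the direction rested on single arrays: the median was -0.07 without vehicle replicate 2, 0.00 without odor replicate 2, 0.24 without vehicle replicate 1, 0.17 without odor replicate 4 and -0.07 with array weights.

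**Figure D5:**
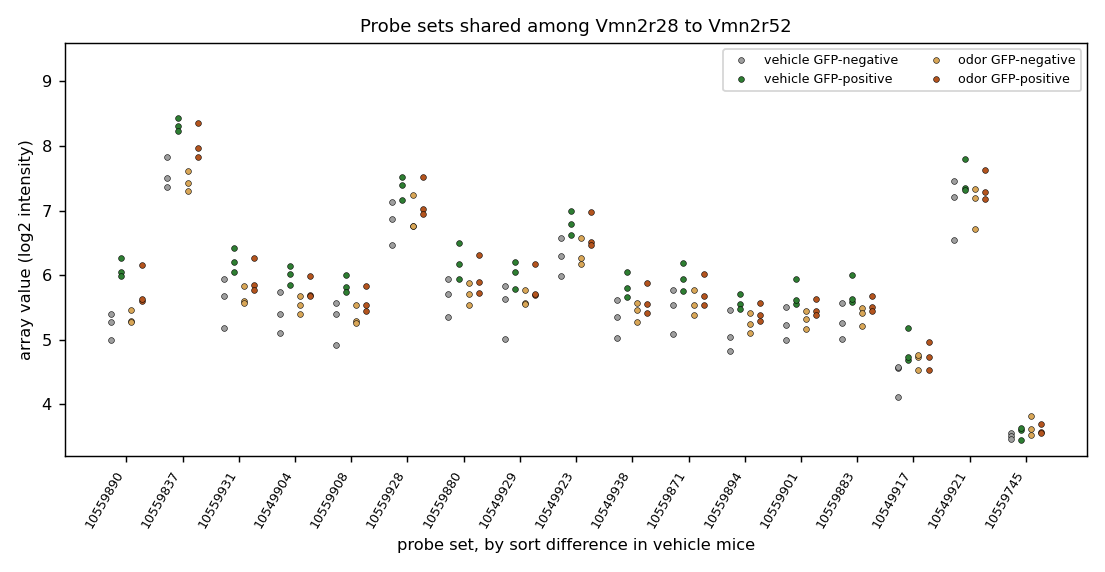
Array values (log2 intensity) of the 17 probe sets shared among Vmn2r28 to Vmn2r52 on each of 12 arrays, ordered by their difference between fractions in vehicle mice, with colours for the 4 groups. Green points (vehicle GFP-positive) lie above grey points (vehicle GFP-negative) for probe set 10559837, with 8.24 to 8.44 against 7.37 to 7.83, and for 10559890, while several others overlap at 1 array.

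Because most of these probe sets were higher in GFP-positive cells of vehicle mice, though which of the 14 genes gave the signal is not known, the 250 bases before their RefSeq gene starts were read (GRCm38.p6, all 14 symbols matched, with 15 windows since Vmn2r29 has 2 starts). They are shown for Vmn2r34, Vmn2r35, Vmn2r51 and Vmn2r52 of the block, 5′ to 3′ along the gene's strand. Of the block only Vmn2r52 also has a probe set of its own. Capitals mark letters that match CCCNNGGG, the core of sites bound by the Ebf (Olf-1) factors of olfactory neurons, a motif that reads the same on both strands.

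Vmn2r34 (chr7:7689399-7689648, minus strand): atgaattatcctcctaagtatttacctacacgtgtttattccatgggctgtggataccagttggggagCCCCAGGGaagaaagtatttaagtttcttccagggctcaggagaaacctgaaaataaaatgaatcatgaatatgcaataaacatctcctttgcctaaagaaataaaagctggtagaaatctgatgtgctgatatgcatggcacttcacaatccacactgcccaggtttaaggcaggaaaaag
Vmn2r35 (chr7:7819868-7820117, minus strand): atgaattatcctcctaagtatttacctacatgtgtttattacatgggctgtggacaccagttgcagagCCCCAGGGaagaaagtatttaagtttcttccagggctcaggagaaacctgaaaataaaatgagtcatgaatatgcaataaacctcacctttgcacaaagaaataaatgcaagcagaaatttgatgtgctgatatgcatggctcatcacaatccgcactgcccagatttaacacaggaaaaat
Vmn2r51 (chr7:10105660-10105909, minus strand): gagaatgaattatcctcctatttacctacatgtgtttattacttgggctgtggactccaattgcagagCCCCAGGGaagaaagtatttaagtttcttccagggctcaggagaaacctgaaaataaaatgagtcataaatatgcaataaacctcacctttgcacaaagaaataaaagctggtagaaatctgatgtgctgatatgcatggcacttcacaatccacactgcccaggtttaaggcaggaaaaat
Vmn2r52 (chr7:10176287-10176536, minus strand): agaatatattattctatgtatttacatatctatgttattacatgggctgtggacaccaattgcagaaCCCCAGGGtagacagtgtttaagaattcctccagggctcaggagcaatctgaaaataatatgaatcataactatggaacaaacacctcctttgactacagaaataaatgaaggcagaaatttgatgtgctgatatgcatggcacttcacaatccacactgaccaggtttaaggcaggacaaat

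The letters CCCCAGGG lie 182 to 175 bases before the start in Vmn2r34, Vmn2r35 and Vmn2r51, and 183 to 176 bases before it in Vmn2r52. They begin 160 bases before the start in Vmn2r48, 148 in Vmn2r43, 67 in Vmn2r37 and 66 in Vmn2r42, and CCCNNGGG has no match in the window of Vmn2r33 or in the second one of Vmn2r29. Without gaps the windows of Vmn2r34 and Vmn2r35 were identical at 91.2% of positions, those of Vmn2r34 and Vmn2r51 at 89.2%, and those of Vmn2r51 and Vmn2r52, which are offset by 1 base at the motif, at 69.6%. Windows offset from these by more bases share less without gaps, for example 25.6% between Vmn2r42 and the first Vmn2r29 window (chr7:7247329-7247578), and the second (chr7:7278290-7278539) shares 19.6% to 28.4% with every other window. CCCNNGGG was found in 13 of 15 windows of the block (86.7%), in 10 of 103 of other V2R genes (9.71%), in 0 of 206 of V1R genes, in 2.74% of 948 odorant receptor windows and in 11.8% of 32851 windows of all genes.

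The TATA box letters TATAAA, searched on both strands, were found in 0 of the 15 windows, in 39.3% of V1R, 24.3% of other V2R, 39.2% of odorant receptor and 12.4% of all windows. The homeodomain core TAATTA, which reads the same on both strands, was found in 0 of the 15, in 7.28% of V1R, 18.4% of other V2R, 18% of odorant receptor and 4.84% of all windows. Most of the 15 windows are near copies of one another, though not the second Vmn2r29 window, and they count as few independent sequences. A match describes letters in a window, and binding was not measured.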

How the data were processed

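The submitters' processing notes name Affymetrix Expression Console, with which the authors made the deposited log2 values per probe set. Its version, summarization and scaling between arrays: not given in the sources used here. Deposited values ran from 2.42 to 14.1, which fits log2 intensity, and were used unchanged, without a filter on low values. The table holds 35556 probe sets, of which 21789 had 1 symbol in the platform annotation, 1621 had several and 12146 had none. Probe sets with 1 symbol gave 19938 genes, with the highest-mean probe set kept per gene. Signal intensity gives no counts, so the 12 arrays and not a depth set the precision.

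The 4 groups of 3 arrays were fitted in 1 linear model with limma 3.58.1 under R 4.3.3 (lmFit, eBayes, two-sided, Benjamini-Hochberg at 0.05 over all genes) without a block. Both fractions of a pool come from the same 3 mice, so they are paired by animals. Their deviations from group means correlated with r between 0.07 and 0.25 over all genes and between -0.15 and 0.09 over the receptors. The fit was run on simulated arrays, drawn independently from each gene's mean and spread, with known changes added to some genes. These held no pairing by pool and no scaling shift, so they do not test the counts of receptors. Summaries and figures used Python 3.11.15, pandas 2.3.3, numpy 2.4.6 and matplotlib 3.10.9. Alternatives were other scalings, probe set rules, blocks, array weights and samples left out.

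The receptors, marker lists and naming rule were chosen with earlier results of these data known. The rule names, in each family, the 5 genes of highest mean, any above background, up to 5 called rises and falls in each sort comparison, and the 2 smallest p-values in each odor comparison and the interaction where none was called, besides 14 set receptors. Outside it, shared probe sets and their windows were chosen after their values were seen.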

Additional observations from a re-analysis of the deposited data

How the results depend on the processing

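The counts of called receptors moved with the scaling, the fit and the arrays used. For the sort in vehicle mice (5 receptors) a second quantile normalization gave 3, cyclic loess 1, subtraction of each array's lowest decile 0 and array weights 17, and leaving out 1 array gave 1 to 8. For the sort in odor mice (18 receptors) these gave 8, 4, 1 and 9, the 2 groups fitted alone 10, and leaving out 1 array 7 to 21. The cause was not tested, except that subtracting the lowest decile sets most receptors to 1 value. With the pool of mice as a replicate block the counts were 5 (3 higher, 2 lower) and 16, with the title number 6 and 16 and with the number in the sample code 6 and 17. Besides the receptors given with blocked values, the pool block ended no call and added Vmn2r79 in vehicle and Vmn1r224 and Vmn1r87 in odor mice. The odor comparisons and the interaction gave 0 under every alternative run. Leaving out genes dimmer than the median gene gave no value, because 0 receptors remain. Above background, the 90th percentile of genes of other organs gave 1 receptor, a V2R gene, in each group, and leaving out 1 array gave 0 to 1. For the 17 shared probe sets of Vmn2r28 to Vmn2r52, array weights gave 6 in vehicle mice (15 as deposited) and cyclic loess 1 in odor mice (2 as deposited). Leaving out 1 array gave 4 to 15 and 1 to 2, and the pool block 14 and 2. Over 240 alternatives for 16 called differences of named receptors, 124 kept the call, 116 lost it and 0 reversed. Low intensity limits all of these values, since 163 of 167 receptors lie below the lower quartile of every array, where a difference in log2 intensity can understate one in RNA.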
